A study of Mus musculus with 6 samples.

Results

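The transcription factors that set up and maintain the microglial lineage were compared between GFAP-IL6 and wild-type (WT) mice in TruSeq libraries of frontal cortex. The genes were chosen by symbol from the count table, and all 8 of them, Spi1, Ikzf1, Runx1, Irf8, Irf5, Sall1, Mef2a and Mef2c, were found among its 33000 genes. All 8 also passed the filter on low counts that left 15341 genes for testing. The groups were 3 GFAP-IL6 mice, homozygous for a transgene that expresses the cytokine IL6 under the promoter of the astrocyte gene Gfap, and 3 WT mice, with 1 library from each. All were of the C57BL/6 strain and 3 months old, and the labels give no other treatment. IL6 is made by astrocytes in this model and the cortex was not sorted, so every level is that of whole tissue. In such bulk samples more cells of a type and more RNA per cell cannot be told apart.

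Microglia are the resident macrophages of the brain and arise from progenitors of the embryonic yolk sac. Runx1 marks those progenitors. Spi1, which encodes PU.1, is required for all macrophages and opens their enhancers, and Irf8 acts with PU.1 at joint DNA sites. Ikzf1 encodes the zinc finger factor Ikaros of blood lineages, and Irf5 drives inflammatory cytokine genes in macrophages. Sall1 keeps microglia in their resting state and separates them from other macrophages. Mef2a and Mef2c bind microglial enhancers but are widely used in neurons, where Mef2c controls synapse number. Signals from the IL6 receptor reach genes mainly through the factor STAT3.

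Library totals ranged from 7559524 to 16877001 counts, and each GFAP-IL6 library was shallower than each WT library (two-sided exact permutation test, p of 0.1, which is the smallest that this design can give). The labels held, since reads of Il6 numbered 0, 2 and 0 in the WT libraries and 12, 10 and 24 in those of GFAP-IL6, while the estimate for Gfap was 2.84 ± 0.20 on the log2 scale (SE, edgeR adjusted p of 5.5e-06). Cortical neurons were present in all libraries, with Camk2a, a kinase of excitatory synapses, at a mean of 3902 CPM (counts scaled to the library total) in WT. The tissue was not uniform in WT. WT replicate 2 held 284.5 CPM summed over 6 striatal markers, against 131 to 171 CPM in the other libraries, and WT replicate 3 held 602 CPM over 4 choroid plexus markers, against 3.14 to 58.6 CPM.

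Per gene length, the factors of the myeloid lineage were the scarcest and the MEF2 factors the most abundant. The level in TPM, which divides counts by gene length and scales them to the library, was 314 ± 21.3 in WT and 284 ± 30.8 in GFAP-IL6 for Mef2c (SD, n = 3 each). The WT mean of Mef2c lay above that of each of 16 microglial markers, Ctss among them at 116 TPM. In GFAP-IL6 it lay below Ctss at 458 and C1qa at 315 TPM. Mef2a followed at 79.8 ± 1.45 TPM in WT and 77.9 ± 3.96 TPM in GFAP-IL6. Then came Irf5 at 12.3 ± 0.220 and 17.6 ± 0.343 TPM and Sall1 at 12.2 ± 0.539 and 16.3 ± 1.43 TPM. The levels of Irf5 and Sall1 overlapped in WT, where Irf5 ranged from 12.1 to 12.6 and Sall1 from 11.6 to 12.7 TPM, but not in GFAP-IL6, where Irf5 was at 17.3 TPM or more and Sall1 at 17.2 TPM or less.

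Irf8 and Spi1 were next and close to each other. Irf8 was at 3.70 ± 0.442 TPM in WT and 10.2 ± 1.42 TPM in GFAP-IL6, and Spi1 at 3.33 ± 0.326 and 10.2 ± 1.75 TPM, so that their ranges overlapped in both groups. Ikzf1 lay below them at 2.45 ± 0.200 and 4.95 ± 0.286 TPM. Runx1 was the scarcest, at 0.370 ± 0.093 TPM in WT and 1.21 ± 0.262 TPM in GFAP-IL6. The order of the 8 group means was the same in WT and GFAP-IL6. Neighbours in this order other than Irf5 with Sall1 and Irf8 with Spi1 did not overlap in either group.

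**Figure D1:**
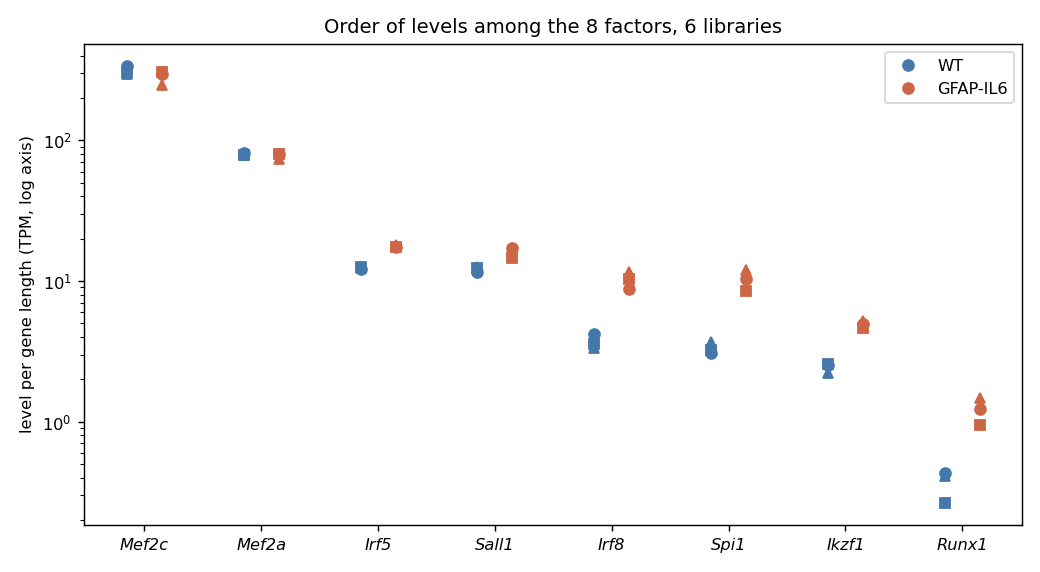
Level of each factor per gene length (TPM, log axis) in 3 WT libraries (blue) and 3 GFAP-IL6 libraries (orange), with 1 point per library and the marker shape giving the replicate. Levels run from 0.264 TPM for Runx1 to 338 TPM for Mef2c, and the orange points lie above the blue points for every factor from Irf5 to Runx1.

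Differential expression was then tested, and 4 of the 8 factors, Spi1, Irf8, Runx1 and Ikzf1, were higher in GFAP-IL6 at an adjusted p under 0.05, with none lower. Among all genes tested, 2.65% were higher at this threshold and 0.209% were lower. For Spi1, Irf8 and Runx1 the log2 fold change was also over 1, as it was for 1.36% of all genes tested. The other 4 factors, Irf5, Sall1, Mef2a and Mef2c, did not pass the threshold. The median log2 fold change of the 8 factors was 0.69, against -0.0038 over all genes tested. On the CPM scale the groups did not overlap for any of the 8. Every GFAP-IL6 library lay above every WT library for 6 of them, as it did for 13.8% of all genes tested, and below for Mef2a and Mef2c, as for 12.7%.

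Spi1 (ENSMUSG00000002111.8, chromosome 2, 91082390 to 91115756, plus strand of mm10) was covered by 25, 41 and 43 counts in replicates 1 to 3 of WT and by 79, 45 and 75 in the GFAP-IL6 replicates. After scaling to depth these were 2.18, 2.45 and 2.70 CPM in WT and 7.08, 5.94 and 8.37 CPM in GFAP-IL6. The lowest GFAP-IL6 library, replicate 2, still lay above the highest WT library. The log2 fold change was 1.54 ± 0.20 (SE), which is 2.91-fold with a 95% interval from 2.13 to 3.95, and the adjusted p by edgeR was 0.000908.

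Irf8 (ENSMUSG00000041515.7, chromosome 8, 120736358 to 120756694, plus strand) rested on 58, 76 and 66 reads in the WT replicates, against 114, 93 and 123 in GFAP-IL6. Its levels were 5.05, 4.53 and 4.14 CPM in WT and 10.2, 12.3 and 13.7 CPM in GFAP-IL6. The groups were thus well apart, although the GFAP-IL6 libraries had fewer reads in total. The log2 fold change was 1.40 ± 0.17 (SE), a 2.64-fold difference with a 95% interval from 2.05 to 3.39, and its adjusted p of 0.000389 by edgeR was the smallest among the 8 factors.

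Runx1 (ENSMUSG00000022952.14, chromosome 16, 92601466 to 92826149, minus strand) rested on the fewest reads, with 17, 16 and 23 reads in WT against 45, 24 and 44 in GFAP-IL6. Its levels were 1.48, 0.954 and 1.44 CPM in WT and 4.03, 3.17 and 4.91 CPM in GFAP-IL6. Its log2 fold change of 1.66 ± 0.28 (SE) was the largest estimate among the 8, but its 95% interval on the fold scale, 2.09 to 4.80, overlapped those of Spi1 and Irf8. The adjusted p was 0.00463 by edgeR. Without GFAP-IL6 replicate 3 it was 0.0498, within a range of 2.2e-05 to 0.0498 over 13 alternatives.

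Ikzf1 (ENSMUSG00000018654.15, chromosome 11, 11685003 to 11772926, plus strand) was read 57, 90 and 71 times in the WT replicates and 105, 68 and 90 times in those of GFAP-IL6. The levels of 4.96, 5.37 and 4.46 CPM in WT and 9.41, 8.98 and 10.05 CPM in GFAP-IL6 were tight within each group. The log2 fold change was 0.94 ± 0.16 (SE), a 1.92-fold difference with a 95% interval from 1.52 to 2.44, and the adjusted p was 0.00479 by edgeR.

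Irf5 (ENSMUSG00000029771.10, chromosome 6, 29526625 to 29541871, plus strand) was at 11.2, 12.3 and 11.7 CPM in WT and at 15.8, 15.8 and 16.4 CPM in GFAP-IL6, from 120 to 207 counts per library. The libraries of each group lay close together and the groups apart, but the estimate was small, with a log2 fold change of 0.44 ± 0.11 (SE), a 95% interval from 0.19 to 0.69 and an adjusted p of 0.0614 by edgeR. The adjusted p fell under the threshold without the low-count filter (0.0423) and without WT replicate 2 (0.0483), and its range over 13 alternatives was 0.0423 to 0.238. Irf5 shares 411 bases, or 14.1% of its annotated exon bases, with exons of Tnpo3 on the opposite strand. Whether the counting used strand was not stated, so reads in that stretch cannot be assigned with certainty. Tnpo3, a nuclear import receptor, had a log2 fold change of -0.06 ± 0.09 (SE, adjusted p of 0.720 by edgeR).

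Sall1 (ENSMUSG00000031665.6, chromosome 8, 89027235 to 89044162, minus strand) was at 21.3, 24.0 and 23.9 CPM in WT and at 30.6, 26.5 and 30.8 CPM in GFAP-IL6. The gap between the groups was narrow, from 24.0 CPM in the highest WT library to 26.5 CPM in the lowest GFAP-IL6 library. The log2 fold change was 0.34 ± 0.10 (SE) with a 95% interval from 0.13 to 0.56, and the adjusted p was 0.0948 by edgeR. Sall1 did not pass the threshold in any of 13 alternatives, with an adjusted p from 0.0583 to 0.356.

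Mef2c (ENSMUSG00000005583.14, chromosome 13, 83504034 to 83667080, plus strand) was at 866, 831 and 783 CPM in WT and at 738, 770 and 625 CPM in GFAP-IL6. These values were slightly lower in GFAP-IL6, with the lowest in replicate 3. The log2 fold change was -0.22 ± 0.09 (SE), with a 95% interval from -0.42 to -0.02 and an adjusted p of 0.207 by edgeR. It was estimated at -0.13 without GFAP-IL6 replicate 3. On the TPM scale the groups overlapped, with 298 to 338 TPM in WT and 248 to 305 TPM in GFAP-IL6.

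Mef2a (ENSMUSG00000030557.14, chromosome 7, 67231163 to 67372858, minus strand) was at 163, 167 and 162 CPM in WT and at 156, 157 and 144 CPM in GFAP-IL6. The estimated log2 fold change was -0.11 ± 0.08 (SE), with a 95% interval from -0.27 to 0.06 and an adjusted p of 0.448 by edgeR. The interval leaves room for a decrease of 0.27 on the log2 scale but not for a change of the size seen in Spi1. It was estimated at -0.06 without GFAP-IL6 replicate 3. On the TPM scale the groups of Mef2a overlapped as well, at 78.8 to 81.5 TPM in WT and 73.3 to 80.5 TPM in GFAP-IL6. Mef2a shares 302 bases, or 2.06% of its exon bases, with Lysmd4 on the opposite strand.

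**Figure D2:**
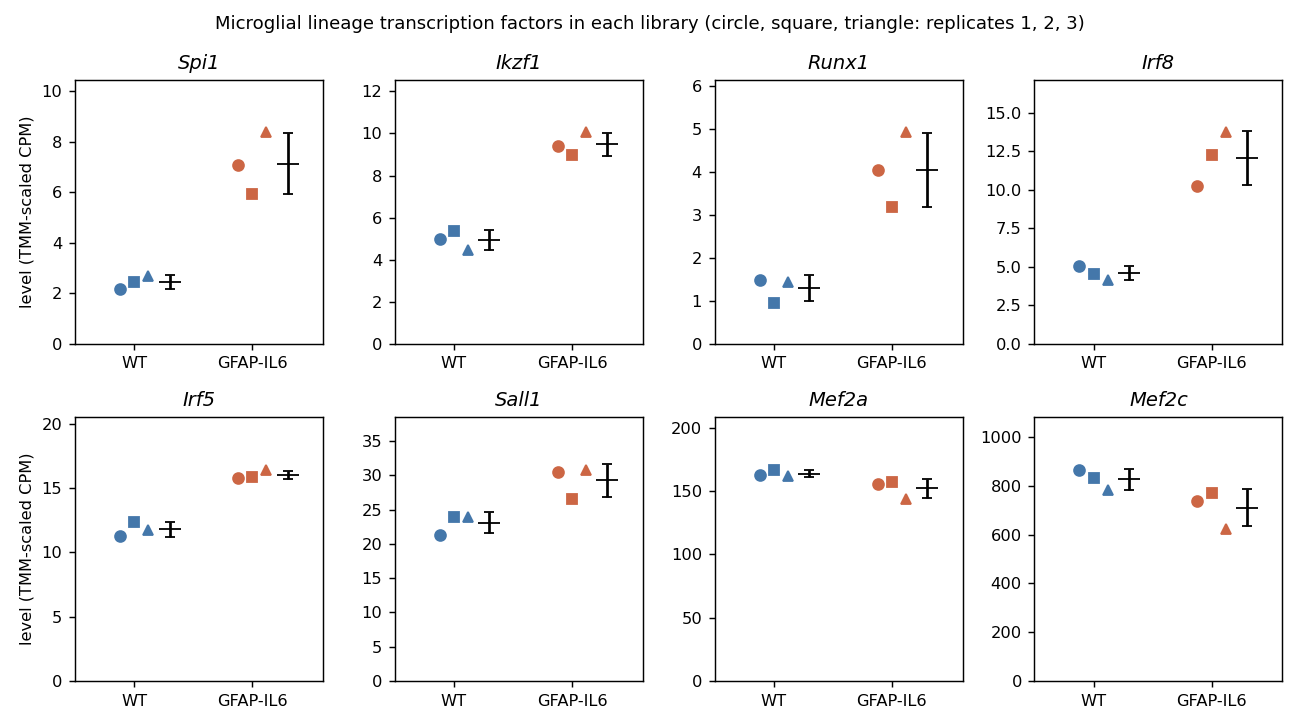
Level of each factor (TMM-scaled CPM, linear axes from 0) in each library, with WT in blue and GFAP-IL6 in orange, the marker shape giving the replicate, and a black bar for the mean with its SD (n = 3). In the upper row the GFAP-IL6 means are 1.92- to 3.17-fold those of WT by the edgeR estimate, and in the lower row the groups lie closer together.

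The DNA around start sites was examined for short binding motifs, to show the sequence from which these transcripts begin. Promoter windows from RefSeq (GRCm38.p6, 250 bases before to 50 bases after a start site) were found for 7 of the 8 factors, with 14 windows in all. Spi1 was not matched. The letters searched on both strands were TTCNNNGAA for STAT factors, AGGAAGT for PU.1, TGTGGT for RUNX factors and GAAANNGAAA for interferon response elements. They occurred in 8.3%, 9.35%, 16.8% and 3.44% of all 32851 windows in this table. Of the 14 windows, 5 held a match to any of these letters and are shown here, with each match in capitals.

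Irf8 (chr8:120736108-120736407, plus strand): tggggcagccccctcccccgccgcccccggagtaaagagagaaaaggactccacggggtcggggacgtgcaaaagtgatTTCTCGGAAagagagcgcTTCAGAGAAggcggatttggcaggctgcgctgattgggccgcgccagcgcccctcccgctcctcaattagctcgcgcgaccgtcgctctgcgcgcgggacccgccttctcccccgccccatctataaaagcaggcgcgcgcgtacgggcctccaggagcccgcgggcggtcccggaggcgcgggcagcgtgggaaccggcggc
Ikzf1 (chr11:11689927-11690226, plus strand): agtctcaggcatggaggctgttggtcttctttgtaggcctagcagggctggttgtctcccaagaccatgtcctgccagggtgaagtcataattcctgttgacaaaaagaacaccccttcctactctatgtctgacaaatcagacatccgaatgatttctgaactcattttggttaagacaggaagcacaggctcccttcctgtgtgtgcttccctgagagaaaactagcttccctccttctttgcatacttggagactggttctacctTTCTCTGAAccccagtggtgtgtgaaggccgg
Mef2c (chr13:83503784-83504083, plus strand): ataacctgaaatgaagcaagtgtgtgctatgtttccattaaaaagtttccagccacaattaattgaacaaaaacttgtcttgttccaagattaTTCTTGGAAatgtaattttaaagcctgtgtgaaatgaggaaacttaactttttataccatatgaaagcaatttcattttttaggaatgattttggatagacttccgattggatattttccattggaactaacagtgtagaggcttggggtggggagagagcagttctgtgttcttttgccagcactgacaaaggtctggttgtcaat
Runx1 (chr16:92826025-92826324, minus strand): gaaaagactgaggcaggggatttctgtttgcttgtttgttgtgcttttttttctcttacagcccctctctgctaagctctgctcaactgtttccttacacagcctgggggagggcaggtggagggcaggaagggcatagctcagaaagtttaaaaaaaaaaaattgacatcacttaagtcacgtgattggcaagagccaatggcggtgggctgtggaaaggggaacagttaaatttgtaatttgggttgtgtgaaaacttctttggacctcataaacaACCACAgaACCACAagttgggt
Sall1 (chr8:89042813-89043112, minus strand): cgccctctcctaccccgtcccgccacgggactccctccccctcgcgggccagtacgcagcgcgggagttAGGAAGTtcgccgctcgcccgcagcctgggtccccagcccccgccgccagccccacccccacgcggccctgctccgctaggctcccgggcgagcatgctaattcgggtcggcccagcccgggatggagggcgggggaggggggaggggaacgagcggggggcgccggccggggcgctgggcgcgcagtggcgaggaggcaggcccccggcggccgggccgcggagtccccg

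The Irf8 window held the STAT letters 2 times, as TTCTCGGAA starting at -171 and TTCAGAGAA starting at -153 from the start site. The Ikzf1 window held TTCTCTGAA at 18 and the Mef2c window TTCTTGGAA at -157. The STAT letters were thus found in some but not all windows of genes that were higher, Irf8 and Ikzf1, and of Mef2c, which did not pass the threshold. The Runx1 window held the RUNX letters 2 times, at 28 and 36 and on the opposite strand, where they read ACCACA. The Sall1 window held the PU.1 letters at -181. Each of these genes also had a window at another start site that held no match. A match of letters is a description and does not show that a factor binds there.

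The relatives of the 8 factors were compared next, since family members can share DNA sites. Of 21 genes, which are relatives or, in the case of Cbfb, the binding partner of the RUNX factors, 14 passed the low-count filter, and 1 of these, Irf9, was past an adjusted p of 0.05. The median log2 fold change of the 14 was 0.16. Irf9, a DNA-binding factor of the interferon response, rose from 10.1 ± 0.618 to 16.3 ± 2.09 CPM (SD, n = 3 each), which is 0.68 ± 0.13 on the log2 scale (SE, edgeR adjusted p of 0.0120). It did not pass without GFAP-IL6 replicate 2 (adjusted p of 0.0708).

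Within the interferon regulatory factors, Irf8 was the member with the largest estimate. Irf7, Irf1 and Irf3 had log2 fold changes of 1.05 ± 0.30, 0.62 ± 0.17 and 0.51 ± 0.14 (SE), with adjusted p values of 0.0852, 0.0803 and 0.0797 by edgeR. For each of them every GFAP-IL6 library lay above every WT library, as it did for 13.8% of all genes tested. Irf2, a repressor of interferon genes and the most abundant member at 29.9 TPM in WT, had a log2 fold change of 0.17 ± 0.11 (SE, adjusted p of 0.385). Irf8 lay below Irf1 in every WT library, at 3.35 to 4.20 against 4.97 to 5.96 TPM. In GFAP-IL6 the ranges of Irf8 and Irf1 overlapped, at 8.77 to 11.6 and 7.29 to 10.6 TPM. By mean TPM Irf5 lay below Irf3 and above Irf9 in both groups, but in GFAP-IL6 its range overlapped that of Irf9, which reached 17.5 TPM.

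Relatives found mainly in lymphocytes and other blood cells were near 0. Spic had 0 counts in all libraries, and Spib and Runx3 had at most 1. Ikzf3 had at most 2 counts and Irf4 between 3 and 9. A count of 0 allows up to 3 counts, which is 0.178 to 0.397 CPM in these libraries, counting error only. Runx2, the relative that directs bone formation, was far more abundant than Runx1, at 5.02 TPM in WT and 5.12 TPM in GFAP-IL6, with a log2 fold change of -0.03 ± 0.13 (SE). Cbfb, the partner that all RUNX factors need for stable DNA binding, had a log2 fold change of -0.07 ± 0.11 (SE) and was at 28.7 TPM in both groups. The upper 95% limits of both, 0.25 and 0.16, lay below the lower limit of Runx1, 1.06.

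Among the relatives of Ikaros, Ikzf4 and Ikzf5 had log2 fold changes of 0.02 ± 0.12 and -0.01 ± 0.11 (SE), and Ikzf2 one of 0.32 ± 0.24. Ikzf1 was below Ikzf4 and Ikzf5 in level in every library. Sall2 was at 25.2 TPM in WT and had a log2 fold change of -0.02 ± 0.09, whereas Sall3 had one of 0.50 ± 0.16 (SE, adjusted p of 0.118). Mef2d, which at 104 TPM in WT and 119 TPM in GFAP-IL6 lay between Mef2c and Mef2a by mean level, had a log2 fold change of 0.14 ± 0.10 (SE, adjusted p of 0.455). Mef2b had at most 1 count.

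**Figure D3:**
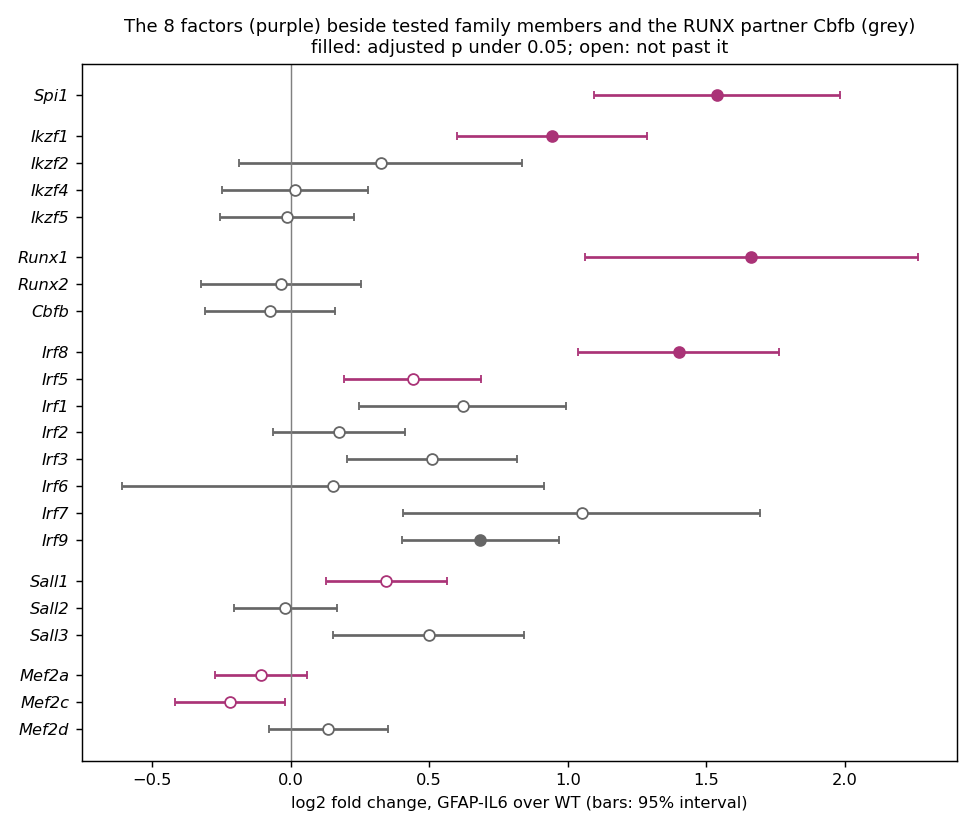
Log2 fold change of GFAP-IL6 over WT with its 95% interval (edgeR) for the 8 factors (purple) and the 14 tested relatives and partner (grey), grouped by family. Filled points are past an adjusted p of 0.05, which in grey is Irf9 alone, and the intervals of Runx2, Cbfb, Ikzf4, Ikzf5 and Sall2 all include 0.

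Other transcription factors of myeloid cells were then examined from a list of 24 genes, of which 20 were tested. Of these, 6 were higher at an adjusted p under 0.05 and 0 were lower, with a median log2 fold change of 0.42. Tal1, a factor of blood and endothelial progenitors, showed the largest estimate, at 1.83 ± 0.27 on the log2 scale (SE, edgeR adjusted p of 0.00172). It rested on 12, 16 and 17 reads in WT against 33, 33 and 34 in GFAP-IL6. Stat3, the main transducer of IL6 signals, rose from 47.6 ± 0.784 to 82.7 ± 13.1 CPM (SD, n = 3 each), with an adjusted p of 0.000858. Cebpa, which works beside PU.1 in myeloid differentiation, rose from 6.59 ± 0.147 to 12.1 ± 1.63 CPM (SD, n = 3 each).

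Elf4 and Klf4, which are also used in endothelial cells, rose with log2 fold changes of 1.62 ± 0.31 and 0.92 ± 0.21 (SE) and adjusted p values of 0.0129 and 0.0301 by edgeR. Of the 6 genes that were higher, Tal1 and Stat3 stayed past the threshold whichever library was left out. Without GFAP-IL6 replicate 3 they were the 2 that did, in place of 6. Cebpa missed it in that case alone, Elf4 also without GFAP-IL6 replicate 2, and Klf4 in 4 of the 6 cases. The factors of this list with the highest mean TPM over the 6 libraries that did not pass were Id2, Bhlhe40 and Ets2, with log2 fold changes of -0.25 ± 0.10, -0.06 ± 0.10 and 0.06 ± 0.08 (SE).

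The factors were set beside the genes that mark microglia, several of which PU.1 and IRF8 are known to control. Of 16 microglial markers, 13 were higher at an adjusted p under 0.05, 0 were lower, and the median log2 fold change was 0.84. Summed over the 16 markers the level was 538 to 687 CPM in WT and 1193 to 1369 CPM in GFAP-IL6. Itgam, an integrin of myeloid cells, had a log2 fold change of 2.03 ± 0.10, the protease gene Ctss one of 1.90 ± 0.14, the complement gene C1qa one of 1.61 ± 0.11 and Laptm5, a lysosomal membrane protein, one of 1.17 ± 0.09 (SE). The receptors P2ry12 and Gpr34 stood apart, with log2 fold changes of -0.27 ± 0.14 and -0.22 ± 0.20 (SE) and adjusted p values of 0.291 and 0.540 by edgeR.

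**Figure D4:**
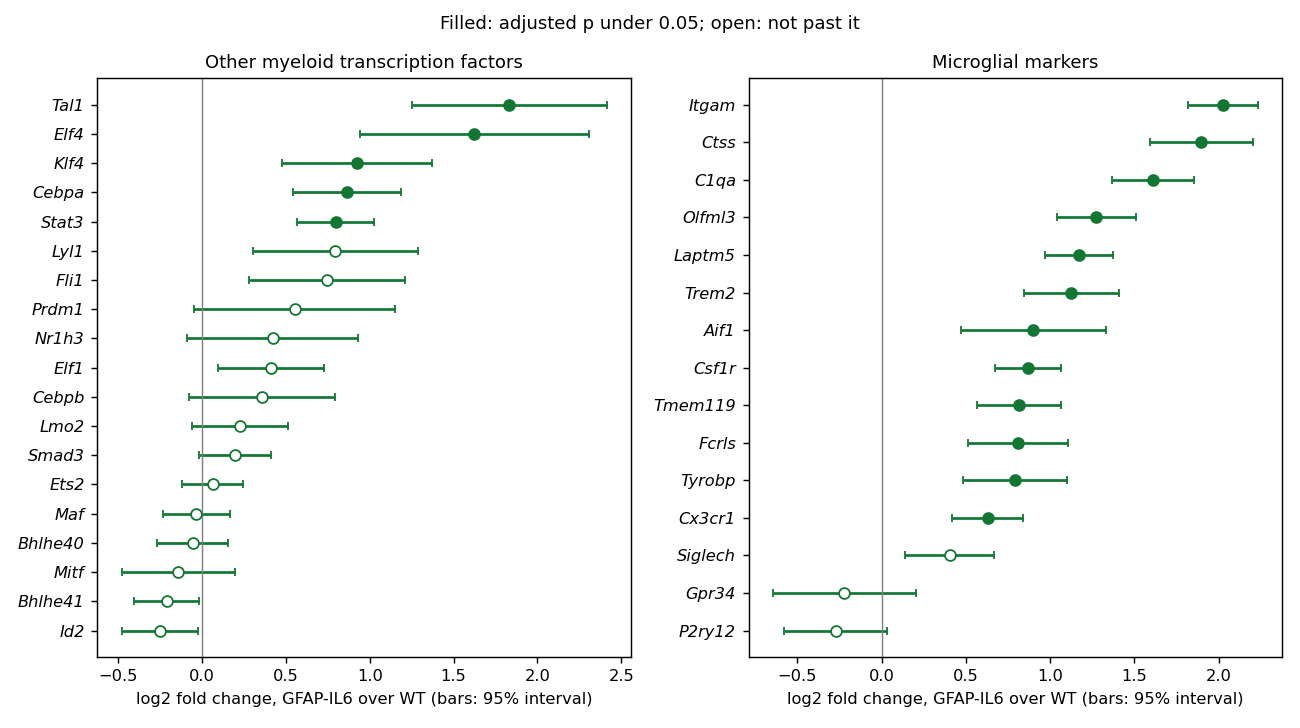
Log2 fold change of GFAP-IL6 over WT with its 95% interval (edgeR) for 19 of the tested myeloid transcription factors (left) and 15 of the microglial markers (right), with filled points past an adjusted p of 0.05. Filled points number 5 on the left and 12 on the right, and P2ry12 and Gpr34 are the 2 markers below 0.

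To place the factors within this rise, each was expressed relative to the mean of the 16 markers in the same library, on the scale of log2(CPM + 0.5). The mean of the markers itself was higher in GFAP-IL6 by 0.91, at 4.61 to 4.98 in WT and 5.62 to 5.87 in GFAP-IL6. A gene of unchanged level would thus be lower in every GFAP-IL6 library on this relative scale. The share of all genes that were lower in this way was not computed. Relative to the mean of the markers, Spi1 was higher in GFAP-IL6 by 0.46, Runx1 by 0.43 and Irf8 by 0.40, and Ikzf1 differed by -0.03. Irf5 was at -0.48, Sall1 at -0.57, Mef2a at -1.01 and Mef2c at -1.13. The groups did not overlap for Spi1, which was higher in all GFAP-IL6 libraries, and for Irf5, Sall1, Mef2a and Mef2c, which were lower in all. For these 5 the exact two-sided permutation p was 0.1, the smallest possible with 3 against 3, and 0.16 after adjustment over the 8 factors. It was 0.2 for Runx1 and Irf8 (0.229 adjusted) and 0.9 for Ikzf1, so no difference was past 0.05, and none could be by this test.

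The relative values of the scarce factors depended on the reference and the scale. When 5 markers of resting microglia, P2ry12 and Gpr34 among them, were left out of the reference, the difference was 0.17 for Spi1, 0.14 for Runx1, 0.11 for Irf8 and -0.31 for Ikzf1. With a pseudocount of 2 it was 0.17 for Spi1, 0.0038 for Runx1, 0.23 for Irf8 and -0.14 for Ikzf1. Without WT replicate 2 it was 0.20 for Runx1. That of Ikzf1 turned positive without WT replicate 1 (0.08) and without GFAP-IL6 replicate 3 (0.01). Those of Irf5 and Sall1 stayed negative under both, at -0.76 and -0.86 with the shorter reference.

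**Figure D5:**
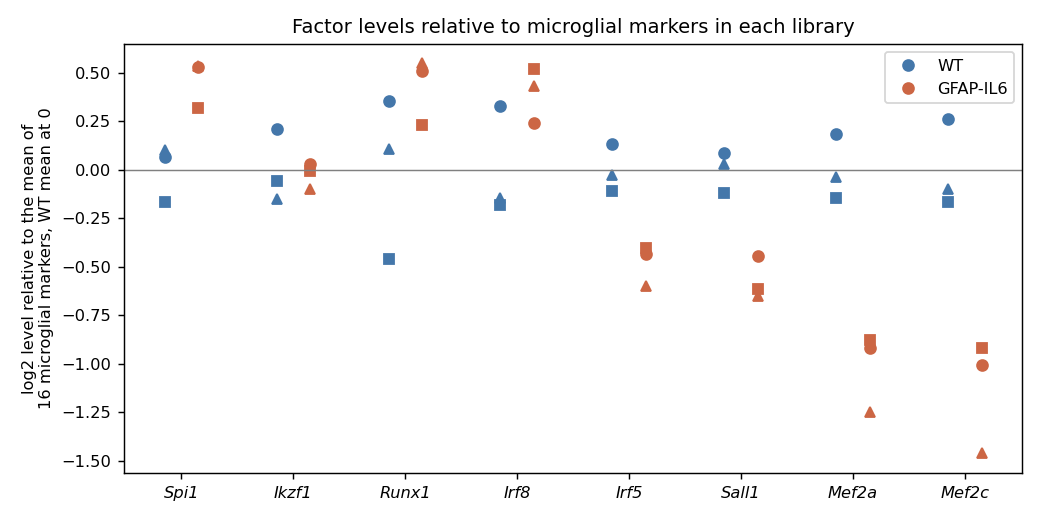
Level of each factor minus the mean level of 16 microglial markers in the same library, on the log2(CPM + 0.5) scale and shifted so that the WT mean of each factor is 0 (blue, WT; orange, GFAP-IL6; marker shape, replicate). Orange points lie below all blue points for Irf5, Sall1, Mef2a and Mef2c, and above them for Spi1. A gene of unchanged level would also lie below, since the mean of the markers rose.

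Other cell types that express these factors were checked by their markers. Among 13 markers of other leukocytes, 2 were tested and 0 were past an adjusted p of 0.05 (0 also at an unadjusted p under 0.05, by edgeR). At least 3017 of all 15341 genes tested had an unadjusted p under 0.05, so this looser threshold says little for so few genes. Of the 13 genes, 8 had at most 3 counts in any library. Cd3d and Cd3e encode parts of the T cell receptor complex. Cd3d had 0 counts in all libraries, whereas Cd3e had 0 in each WT library and 3, 1 and 2 in those of GFAP-IL6. Ms4a1, a gene of B cells, was at 0 in WT and at 2, 0 and 3 counts in GFAP-IL6, and Nkg7, a gene of cytotoxic cells, was at 0, 1 and 0 against 1, 2 and 1 counts. These counts lie at or under the limit of 3 that a count of 0 allows. The summed level of the list was 24.8 to 28.3 CPM in WT and 29.2 to 32.3 CPM in GFAP-IL6, most of it from Flt3 and Zbtb46, with log2 fold changes of 0.22 ± 0.15 and 0.10 ± 0.14 (SE). The sums of the groups did not overlap, but the groups overlapped for Flt3 and for Zbtb46 taken singly. Flt3 was at 8.05 to 10.2 CPM in WT and 9.15 to 11.6 CPM in GFAP-IL6. Ccr2, a receptor of monocytes, was read 2, 11 and 8 times in WT and 14, 5 and 13 times in GFAP-IL6. Its mean was 0.444 against 1.12 CPM, but it was too scarce to be tested. The groups of Ccr2 nearly touched, at 0.656 CPM in the highest WT library and 0.660 CPM in the lowest GFAP-IL6 library. The part of such cells in the values of Spi1, Ikzf1, Runx1 and Irf8 was not tested. Perivascular macrophage markers summed to 7.97 to 13.7 CPM in WT and 9.68 to 16.5 CPM in GFAP-IL6, and of 4 tested, 0 were past the threshold (0 also at an unadjusted p under 0.05, by edgeR). The most abundant of these, Mrc1, had a log2 fold change of 0.26 ± 0.27 (SE) and Cbr2 had 3 to 14 counts.

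Endothelial markers were higher beside Runx1, Tal1, Elf4 and Klf4. Of 6 endothelial markers, 3 were higher at an adjusted p under 0.05, with a median log2 fold change of 0.57, and their sum was 111 to 133 CPM in WT and 184 to 218 CPM in GFAP-IL6. Cldn5, a protein of tight junctions, had a log2 fold change of 0.93 ± 0.14, the receptor gene Flt1 one of 0.75 ± 0.10 and the adhesion gene Pecam1 one of 0.60 ± 0.14 (SE). Pecam1 did not pass when any one GFAP-IL6 library was left out, with an adjusted p of up to 0.214. Their part in the values of Runx1 and the other factors was not tested.

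Neuronal markers were set beside Mef2a and Mef2c. The sum of 6 interneuron markers was 952 to 997 CPM in WT and 783 to 860 CPM in GFAP-IL6, with a median log2 fold change of -0.27. None of the 6 was past an adjusted p of 0.05 by edgeR, while 5 had an unadjusted p under 0.05. At least 3017 of all 15341 genes tested were under that unadjusted threshold. Sst and Gad1, which mark inhibitory neurons, had log2 fold changes of -0.34 ± 0.09 and -0.22 ± 0.08 (SE). The sum of 6 excitatory markers overlapped between the groups, at 5061 to 6109 CPM in WT and 5738 to 6058 CPM in GFAP-IL6, and Camk2a and Slc17a7 had log2 fold changes of 0.09 ± 0.10 and -0.0024 ± 0.09 (SE). Nrn1, a growth factor of neurons, was the 1 marker past the threshold, at -0.34 ± 0.08 on the log2 scale (SE, edgeR adjusted p of 0.0334). Nrn1 was not past it without WT replicate 3 or without any one of the GFAP-IL6 libraries, where its adjusted p reached 0.187. The part of these cells in the Mef2c value was not tested.

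In the remaining lists, Slc1a2 and Slc1a3, the glutamate transporters of astrocytes, had log2 fold changes of 0.14 ± 0.11 and -0.04 ± 0.11 (SE). Gfap was the 1 astrocyte marker of 6 past the threshold. Of these 6, 3 had an unadjusted p under 0.05 by edgeR, Gfap among them, as did at least 3017 of all 15341 genes tested. Of 6 oligodendrocyte markers 0 were past it (0 also at an unadjusted p under 0.05, by edgeR), with a median of -0.21, and Mbp, a myelin protein, had a log2 fold change of -0.16 ± 0.17 (SE). For striatum and choroid plexus the medians were -0.46 and -2.15, with 0 genes past the threshold. Of 6 and 3 genes tested, 1 and 2 had an unadjusted p under 0.05 by edgeR, as did at least 3017 of all 15341. Ppp1r1b of the striatum had a log2 fold change of -0.44 ± 0.13, and Ttr and Kl of the choroid plexus -3.35 ± 1.41 and -2.15 ± 0.93 (SE). Ttr was at 1.31, 11.2 and 550 CPM in WT and at 9.32, 47.3 and 1.67 CPM in GFAP-IL6. Kl was at 1.31, 3.04 and 30.8 CPM against 1.61, 5.28 and 1.67 CPM, so both estimates rested on WT replicate 3. The summed striatal level was highest in WT replicate 2, at 284.5 CPM.

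For each factor, the 2 genes with the most similar profile over the 6 libraries were named among 15034 genes with a mean of at least 1 CPM, by the Pearson coefficient of log2 CPM. The 6 libraries form 2 groups that differ in depth and genotype, which all genes share, so the coefficients are given as a description. Spi1 was followed most closely by Unc93b1, which brings Toll-like receptors to endosomes, and Apobec1. Ikzf1 was followed by Csf2rb, a receptor subunit for myeloid growth factors, and Ms4a6c, and Irf8 by I830077J02Rik and Ahnak. Irf5 was followed by Ctss and Slc11a1, a metal transporter of phagosomes. The coefficients of these 8 genes ranged from 0.995 to 0.999.

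Runx1 was nearest to Abcc9, a potassium channel subunit of pericytes, and Tie1, a receptor of endothelial cells (r of 0.996 and 0.993). Sall1 was nearest to Sh3bp2 and Mcm3 (0.994 and 0.991). Mef2a was nearest to Pafah1b1, a regulator of the motor dynein, and Negr1, a neuronal adhesion protein (0.997 and 0.996). Mef2c was nearest to Napb, which acts in synaptic vesicle fusion, and Dclk1, a kinase bound to microtubules (0.995 and 0.992). None of the genes named in this way for Runx1, Sall1, Mef2a and Mef2c was past an adjusted p of 0.05 by edgeR.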

How the data were processed

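RNA from frontal cortex of 3 GFAP-IL6 and 3 WT mice was sequenced by the authors with the TruSeq mRNA protocol. The counts were deposited as raw whole numbers per gene. Their methods name STAR (2.4 in the submitters' processing notes) for alignment to mm10 and featureCounts for counting unique alignments over GENCODE genes, with use of strand not stated. Per the file headers, the length of each gene was given too. Groups and replicate numbers came from the titles. Differential expression was tested with edgeR 4.0.16 (quasi-likelihood F-test, TMM, filterByExpr, group as the only term, Benjamini-Hochberg adjustment over 15341 genes), in place of the DESeq2 that the authors used. Standard errors were derived from the F statistic. CPM are TMM-scaled. TPM were computed from all genes. Gene positions came from GENCODE M21 on GRCm38, the assembly of mm10.

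Alternatives were RLE size factors, DESeq2 1.42.0, limma-voom (limma 3.58.1), no low-count filter, a mean CPM of at least 1, thinning to the smallest library, the replicate number as a block and leaving out each library. No pair of libraries agreed within sampling noise (chi-square per degree of freedom from 2.23 to 20.1 over 15 pairs). On simulated counts for this comparison over 15342 genes, edgeR recovered 89% of genes changed by a log2 fold change of 1 and 97% of those changed by 1.5, with 3.63% of calls false. The changed genes were drawn only from those above a minimum mean CPM, so the recovery rates do not cover scarcer genes.

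The 8 factors and all lists were chosen with earlier results of these data known. The naming rule took all 8 factors, Il6 and Gfap, the list genes past an adjusted p of 0.05 and, of each factor list, the 3 most abundant of those not past it. Of the microglial markers it took the 4 with the smallest and the 2 with the largest p, and of each other marker list the 2 most abundant genes. A few genes that the rule takes are counted in their lists but not reported here by name. Further relatives, Ccr2, Cd3d, Cd3e, Ms4a1, Nkg7 and Tnpo3 were named after their values were seen.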

Additional observations from a re-analysis of the deposited data

How the results depend on the processing

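The direction of all 8 factors was the same under all 13 alternatives to the edgeR test, and Spi1, Irf8, Runx1 and Ikzf1 were past an adjusted p of 0.05 in each of them. Sall1, Mef2a and Mef2c passed it in none. Irf5 passed it without the low-count filter (log2 fold change 0.44) and without WT replicate 2, and its estimate lay between 0.41 and 0.47 when one library was left out. The cause was not tested.

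Counts of list genes moved by over 1.5 times as follows. The relatives and partner past the threshold, 1 in the edgeR test, were 4 without the low-count filter, 2 with the replicate block and 0 to 2 when one library was left out. The other myeloid factors, 6 in that test, were 2 to 6 when one library was left out, lowest without GFAP-IL6 replicate 3. Excitatory neuron markers (1) were 0 after thinning and 0 to 1 when one library was left out. Without the low-count filter there were 3 interneuron, 2 astrocyte, 5 endothelial, 2 striatal and 4 choroid plexus markers, in place of 0, 1, 3, 0 and 0. With DESeq2 there were 1 interneuron, 2 astrocyte and 1 striatal markers. With the replicate block there were 2, 2 and 1. When one library was left out, the ranges were 0 to 2 for interneuron, 1 to 2 for astrocyte, 0 to 1 for oligodendrocyte and 0 to 1 for striatal markers. The whole table had 439 genes past an adjusted p of 0.05, 1154 without the low-count filter, 750 with the replicate block, 1061 without WT replicate 1, 282 without GFAP-IL6 replicate 2 and 187 without GFAP-IL6 replicate 3.

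Relative to a microglial reference without markers of resting cells, the differences were 0.17 for Spi1, 0.14 for Runx1, -0.31 for Ikzf1, 0.11 for Irf8, -0.76 for Irf5, -0.86 for Sall1, -1.30 for Mef2a and -1.41 for Mef2c. With a pseudocount of 2 they were 0.17 for Spi1 and 0.0038 for Runx1, as a larger pseudocount shrinks the change of scarce genes by construction. The replicate numbers were not shown to pair the libraries, since the deviations of same-numbered libraries from their group means correlated at 0.015 to 0.0996 across genes, and the replicate block changed no call among the 8 factors. When one library was left out, the relative difference of Runx1 ranged from 0.20 to 0.61 and that of Ikzf1 from -0.10 to 0.08. Runx1 and Spi1 rested on 16 to 79 counts per library, and how much of their error comes from depth was not tested.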
